A study of Sus scrofa with 23 samples.

Results

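The nuclear genes for subunits of the respiratory chain and ATP synthase were examined in pig prefrontal cortex after psilocybin. Members were the rows of the count table whose pig Ensembl symbol starts with NDUFA, NDUFB, NDUFC, NDUFS, NDUFV, UQCR, COX4 to COX8, ATP5F, ATP5M or ATP5P, or is SDHA, SDHB, SDHC, SDHD or CYC1, without the NDUFAF assembly factors. The rule uses names only, and it was set with earlier results of these data known. It gave 64 of 25880 genes: 28 of complex I, 4 of complex II, 7 of complex III, 15 of complex IV (NDUFA4 and NDUFA4L2 are placed there) and 10 of complex V. COX6B2, the testis form of subunit VIb, had 14 reads in all and at most 3 in any library, so 63 members were tested. Subunits whose row carries no symbol are not analysed here.

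RNA came from 23 adolescent female slaughter pigs of 20 kg, each giving 1 poly-A selected library from snap-frozen cortex. Awake animals received 1 intravenous injection of saline or of psilocybin at 0.08 mg/kg and were killed with pentobarbital after 1 day or 1 week. The groups were saline 1 day (5 animals), psilocybin 1 day (6), saline 1 week (6) and psilocybin 1 week (6). The design states 6 animals a group, and the sixth saline 1 day animal is not analysed here. The labels also give a batch, 1 or 2, without saying what it stands for. Saline 1 day held 2 batch 1 and 3 batch 2 animals, and the other groups 3 of either. Animals are named by their sample titles, in which sal and psi are the treatment, 1d and 1w the time, and the last number the label used in the plots.

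The respiratory chain sits in the inner mitochondrial membrane. Complex I takes electrons from NADH and complex II from succinate, and both pass them through coenzyme Q to complex III and through cytochrome c to complex IV, which reduces oxygen. Complexes I, III and IV pump protons, and complex V, the ATP synthase, uses the gradient to make ATP. Neurons depend on this supply for ion pumping and synaptic transmission. Complex II is built from nuclear genes alone, while the other complexes combine nuclear subunits with subunits made inside the mitochondrion from its own genome. Many small accessory subunits surround the catalytic core, and some subunits have tissue-restricted paralogues.

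Libraries held 9504421 to 18654626 assigned counts, and members took 0.673% to 1.03% of them. All tested markers of excitatory neurons (8), inhibitory neurons (6), astrocytes (7) and oligodendrocytes (6) had reads in every library. The tissue is a mixture, so fewer cells of a type and less RNA per cell cannot be told apart in any result here. Counting ignored strand and shared reads between overlapping genes. Exon bases of 17 members were shared by over 10%, with 99% for CYC1 (SHARPIN), 100% for NDUFA2 (TMCO6), 100% for NDUFB7 (a gene without symbol), 46% for NDUFV1, 44.2% for COX6A1, 43.1% for NDUFB10 (RPS2 among others), 41.8% for NDUFS3 and 40.7% for UQCRQ (GDF9). Counts of these members include an unknown share of their neighbours' reads.

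Levels per length, in CPM (counts scaled to the library's total) per kilobase of merged exons, spanned the members widely. COX4I1, the common form of the regulatory complex IV subunit (chr6:3131019-3137482, build susScr11), was highest at 495 ± 126 CPM per kb (SD, n = 23). NDUFA4, a subunit of complex IV despite its name (chr9:80637163-80644388), followed at 417.2 ± 99.0 and COX8A, a small complex IV subunit (chr2:8101611-8103285), at 389 ± 76.8. The ranges of these 3 overlapped, from 338 to 757, from 305 to 722 and from 298 to 546 CPM per kb. The 3 were measured in the same 23 animals, so this overlap does not show how firm their order is. COX7A2 stood at 238 ± 66.5 and ATP5ME, a membrane subunit of ATP synthase, at 193 ± 48.7. At the other end, NDUFA4L2 had 1.38 ± 0.322, COX4I2 2.54 ± 0.857, NDUFV2 9.32 ± 1.73 and COX6A2 9.95 ± 1.88 CPM per kb. Merged exons of NDUFV2 and NDUFA4L2 are long, at 6875 and 6228 bases, which lowers a value per length where most transcripts hold only part of them.

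Paralogues differed in level. COX4I2, the lung and hypoxia form (chr17:35340572-35346087), lay far under COX4I1, with 0.896 to 2.94 CPM over the 23 animals, and its counts were small, from 9 to 33 reads per library. COX6A1, the general form, had 49.9 CPM per kb and COX6A2, the heart and muscle form, 9.95. COX7A2 was above COX7A1, the heart and muscle form, at 27.5 CPM per kb, and COX7A2L, a factor that joins complexes III and IV, had 70.5. NDUFA4L2, a hypoxia-induced relative of NDUFA4, was detected with 56 to 159 reads per library, 4.31 to 13.7 CPM. In complex II, SDHA, the flavoprotein that oxidises succinate, stood at 137 CPM per kb, SDHD at 51.4, SDHB at 37.8 and SDHC at 15.03. SDHB is the iron-sulfur subunit, and SDHC and SDHD anchor the complex in the membrane.

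The members varied together from animal to animal. A mean was taken over the 63 members of the log2 level relative to each member's own mean of the 23 animals. By this measure animal cor_sal_1d_420 was highest at 0.53, with 58 of 63 members above their mean, and animal cor_sal_1w_245 was next at 0.46 (61 members). Animal cor_psi_1w_427 had 0.27 (60 members), animal cor_psi_1w_246 had 0.24 (58) and animal cor_psi_1d_255 had 0.23 (57). The lowest were animal cor_psi_1d_415 at -0.31, animal cor_sal_1w_426 at -0.28 and animal cor_sal_1d_416 at -0.27. High and low animals occurred in every group. Animal cor_sal_1d_420 gave the highest level of all 23 for 33 members and animal cor_sal_1w_245 for 17, while animal cor_psi_1d_415 gave the lowest for 18 and animal cor_psi_1w_423 for 13.

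**Figure D1:**
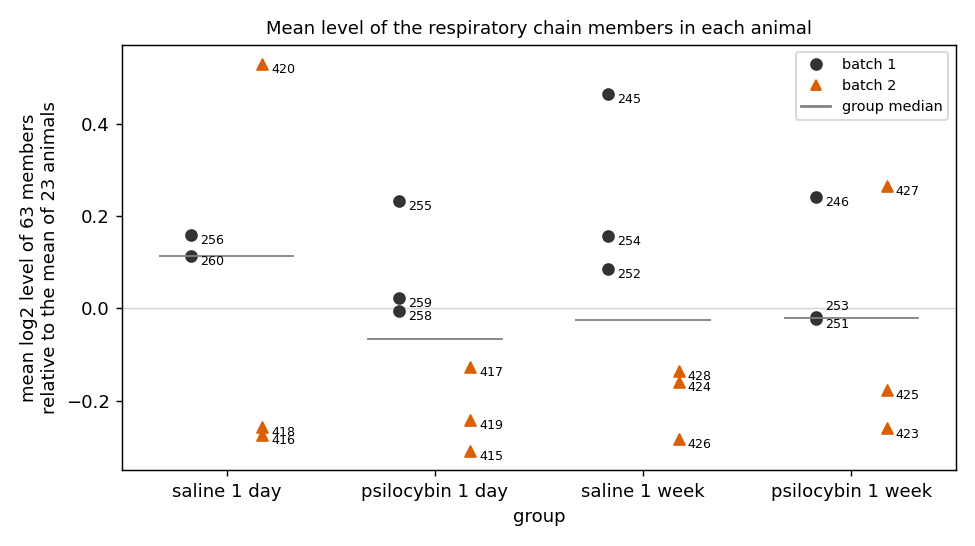
Mean log2 level of the 63 tested members in each animal (vertical axis, relative to the mean of the 23 animals) by group, with circles for batch 1, triangles for batch 2, animal numbers beside the points and group medians as lines. Animal cor_sal_1d_420 at 0.53 stands far from the other batch 2 animals of its group, and most batch 2 points lie under the batch 1 points.

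Within animal cor_sal_1d_420 the members were not equally high. Against the median of the other batch 2 animals, NDUFB1, a small accessory subunit of complex I, was 3.29 times as high, COX7B 2.64 times, NDUFA2 2.59 times, NDUFB5 2.56 times, NDUFS4 2.53 times and ATP5PO, the stalk subunit that confers oligomycin sensitivity, 2.50 times. Catalytic or core members went both ways. NDUFS8 was 1.85 times as high, NDUFV2 1.74 times and ATP5F1C 1.69 times, while SDHA was at 0.977 times, UQCRC1 1.06 times, NDUFV1, which binds NADH, 1.06 times, NDUFS3 1.08 times and ATP5F1A, the alpha subunit of the catalytic head of complex V, 1.09 times. NDUFA4L2 was at 0.885 times. By complex, the median log2 level of animal cor_sal_1d_420 relative to the 23 animals was 0.56 for complex I, 0.32 for II, 0.36 for III, 0.59 for IV and 0.59 for V.

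**Figure D2:**
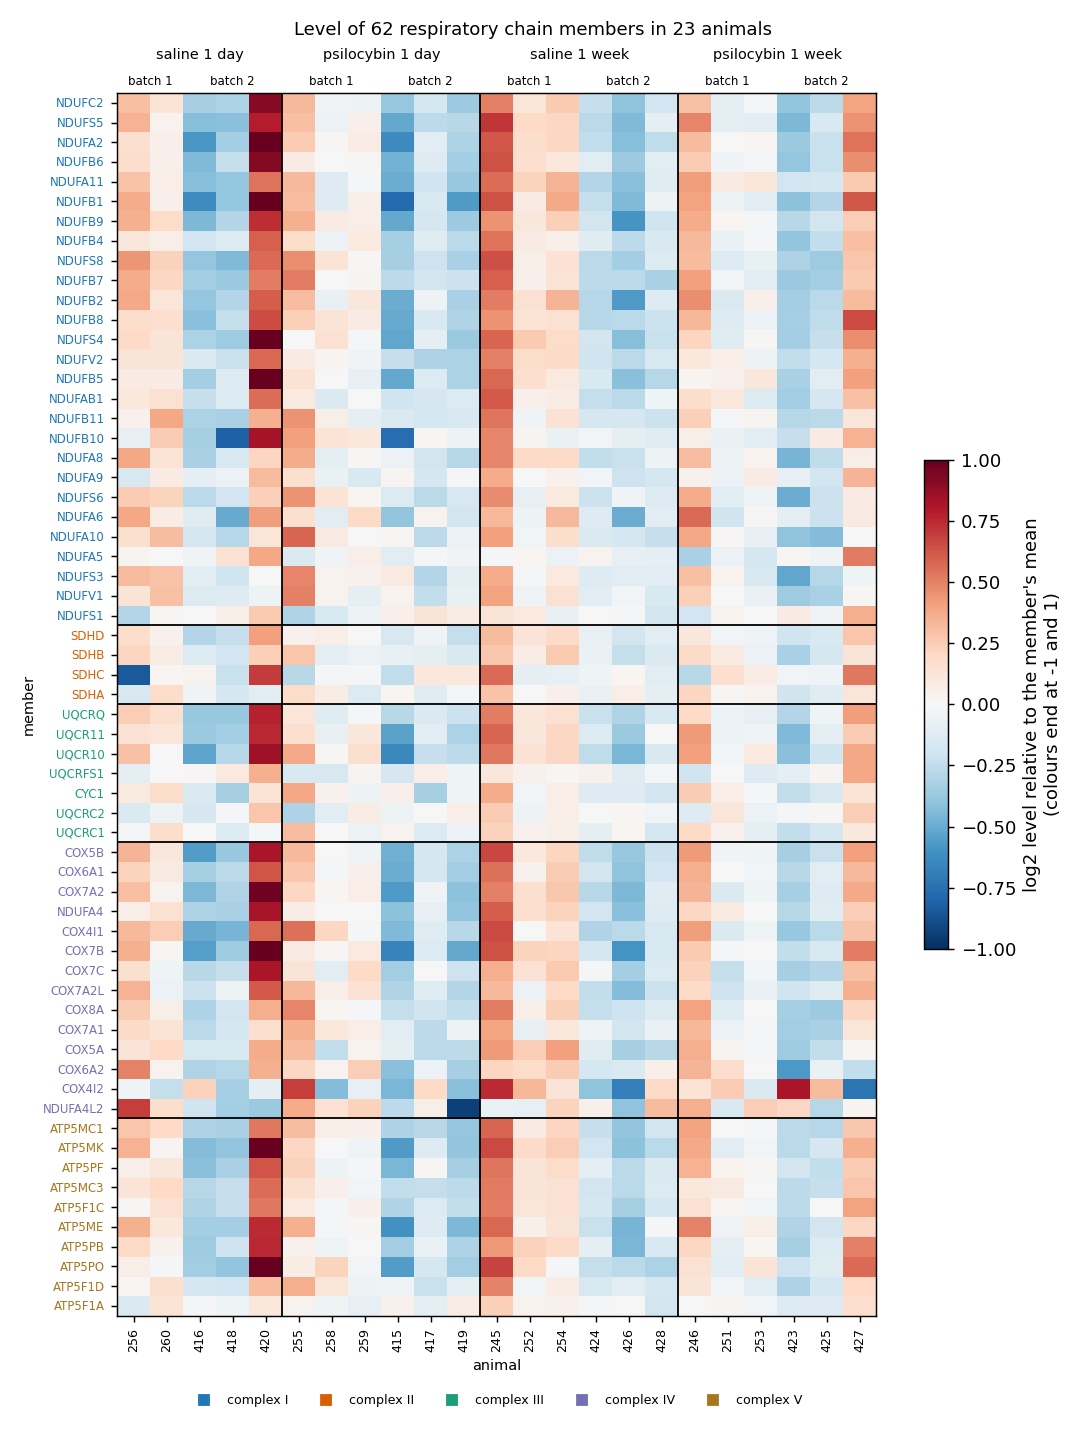
Log2 level of 62 tested members (rows, grouped by complex I to V and ordered within a complex by likeness to the other members) in each animal (columns, by group and batch), relative to the member's mean, with colours ending at -1 and 1. Columns cor_sal_1d_420 and cor_sal_1w_245 are high across most rows, batch 2 columns are mostly low, and SDHA, NDUFS1, COX4I2 and NDUFA4L2, at the foot of their blocks, have the lowest correlation with the other members.

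After group and batch terms, the correlation of a member with the mean of the other members had a median of 0.93 over the 63 members. It was over 0.8 for 43 of 63 (68.2%), against 5.69% of all 15049 genes tested. These 23 points share their libraries and scaling, and 3 of them weigh heavily: without animals cor_sal_1d_420, cor_sal_1w_245 and cor_psi_1w_427, the 3 highest after group and batch terms, the median was 0.70 and 22 members (34.9%) were over 0.8, against 1.13% of all genes. COX5B (0.99), NDUFC2 (0.99), COX6A1 (0.98) and ATP5MC1, a c-ring subunit (0.98), were closest to the rest, and COX5B, NDUFC2 and COX6A1 stayed at 0.94, 0.96 and 0.94 without the 3 animals. NDUFA4L2 (0.01), COX4I2 (0.05), SDHA (0.36) and NDUFS1, the largest iron-sulfur subunit of complex I (0.42), were farthest. Without the 3 animals NDUFA4L2 had 0.43, COX4I2 0.41 and SDHA 0.14.

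For 6 members the correlation was negative without the 3 animals. NDUFS1 then had a correlation of -0.53 with the other members, SDHC -0.48, UQCRC2 -0.47, NDUFA5 -0.38, ATP5F1A -0.18 and UQCRFS1, the Rieske protein of complex III, -0.05. Their merged exons held 2493 to 6534 bases. Other members of such length had positive values, COX6A1 (4893 bases) among them at 0.94. Over the members, longer genes had a smaller SD between animals (Spearman's rho -0.45 over 63 members, -0.31 without the 3 animals, and -0.25 over all 15049 genes). The 21 shortest members (347 to 1229 bases) had a median SD of 0.30 on the log2 scale, against 0.20 for the 21 of middle length and 0.22 for the 21 longest. Without the 3 animals these medians were 0.16, 0.13 and 0.13.

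NDUFB1 (chr7:113652774-113659672) had the largest SD after group and batch terms, 0.47 on the log2 scale, followed by COX4I2 at 0.45, with at most 33 reads in a library, and COX7B at 0.41. NDUFB1 had 13.4, 15.9, 21.5, 27.0 and 52.3 CPM in the 5 saline 1 day animals, and ranged from 12.1 to 25.8 in psilocybin 1 day (median 18.9), from 15.2 to 32.5 in saline 1 week (21.1) and from 15.6 to 32.04 in psilocybin 1 week (19.7). The top value was animal cor_sal_1d_420, and the groups overlapped. ATP5F1A (chr1:95738264-95751358) had the smallest SD, 0.11, at the 5.9th percentile of all genes, with UQCRC1 and SDHA at 0.12. ATP5F1A had 519, 557, 566, 614 and 629 CPM in saline 1 day and 537 to 603 in psilocybin 1 day (median 571), and 504 to 677 and 523 to 645 at 1 week (medians 578 and 568).

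Some genes outside the set followed the same pattern. Those most like the member mean over the 23 animals, after group and batch terms, were KXD1 (r = 0.98), MIEN1 (0.98), GPX4 (0.97), RPL4 (0.97), RPL14 (0.97), MICOS13 (0.97), TMCO6 (0.97, counted partly from the same reads as NDUFA2), SLIRP (0.97) and a pair of rows without symbol (0.97 each). Of the 100 genes with the highest r, 22 were members. The mean of 44 cytosolic ribosomal protein genes had r = 0.97 with the member mean, that of 40 assembly factors 0.97 and that of the 13 mitochondrially encoded subunits 0.69. Means of citric acid cycle genes had 0.67 (0.18 without the 3 animals) and of transcriptional regulators of mitochondrial genes -0.20 (0.07). Taken singly, assembly factors had a median r of 0.63 (0.29 without the 3 animals) and ribosomal protein genes 0.94 (0.76). Markers of oligodendrocyte precursors (-0.81), endothelium (-0.79), mural cells (-0.74) and inhibitory neurons (-0.67) had negative values, and pan-neuronal markers 0.03. Without the 3 animals these were -0.74, -0.22, -0.44, -0.51 and 0.05, and excitatory neuron markers moved from -0.29 to -0.62. Positive values were those of oligodendrocytes (0.44, and 0.21 without the 3 animals), blood cells (0.38 and 0.23) and microglia (0.19 and 0.32). The remaining marker lists were astrocytes (0.01 and -0.34), parvalbumin neurons (-0.07 and 0.04), choroid plexus and ependyma (-0.11 and -0.03) and meningeal fibroblasts (-0.38 and -0.15). The TMM scaling factor of a library had r = -0.92 with the member mean and the log2 total count 0.07. Their part in the shared variation was not tested.

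The comparison of psilocybin with saline 1 day after the dose asks whether a single dose left a transcript change. No member passed the threshold (adjusted p under 0.05, edgeR's quasi-likelihood test with Benjamini-Hochberg adjustment over 15049 genes), and the share of all genes called was 0%. The fitted log2 fold change was negative for 58 of 63 members, with a median of -0.20, while over all genes 7313 of 15049 were negative and the median was 0.004. At an unadjusted p under 0.05, there were 2 members in edgeR (3.17%, against 2.83% of all genes), and the smallest adjusted p of a member was 0.9996. DESeq2 gave 4 members and limma-voom 0 at that unadjusted level. The share of all genes was not computed for these 2 tools, so their counts have no background here. Without animal cor_sal_1d_420 the median was -0.01 and 35 of 63 were negative. Within batch 1, which does not hold animal cor_sal_1d_420, the median was -0.06 (47 negative), and within batch 2 it was -0.29 (61 negative). Beside the members, all 44 ribosomal protein genes were lower in the fit (median -0.23, and 0.09 with none lower without animal cor_sal_1d_420), and all 7 astrocyte markers were higher (median 0.19), with summed levels of 2723 to 4973 CPM in saline and 3946 to 5139 in psilocybin. Of the other marker lists, 5 of 5 pan-neuronal genes were lower (5500 to 6058 and 4562 to 5857 CPM) and 4 of 4 of oligodendrocyte precursors higher (83.8 to 147 and 110.5 to 158 CPM), none of them called. Their part in the members' values was not tested.

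In complex I, 27 of 28 members were lower in the fit, and none passed. NDUFB5, a membrane-arm accessory subunit (chr13:117656438-117672341), had 26.4, 30.6, 35.6, 35.6 and 70.1 CPM in saline 1 day animals, against 23.4 to 37.0 (median 31.1) in the 6 psilocybin 1 day animals. Animal cor_sal_1d_420 alone lay above the psilocybin range, and the other 4 saline values lay inside it. The log2 fold change was -0.42 ± 0.20 (SE; unadjusted p = 0.0442, adjusted p = 0.9996), and it was -0.07 without animal cor_sal_1d_420.

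NDUFV2, which holds an iron-sulfur cluster near the NADH site, had 54.1, 57.2, 69.0, 69.1 and 94.2 CPM in saline and 50.6 to 66.9 (median 57.7) after psilocybin. Its log2 fold change was -0.28 ± 0.13 (unadjusted p = 0.0452) and -0.10 without animal cor_sal_1d_420. NDUFB1 gave -0.56 ± 0.27, NDUFS4, a subunit of the electron-input arm, -0.40 ± 0.20, and NDUFC2 -0.36 ± 0.18. Some core subunits lay nearer 0: NDUFS1 gave -0.04 ± 0.09, NDUFS3 -0.04 ± 0.10 and NDUFV1 -0.01 ± 0.10.

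In complex II, SDHD (chr9:39790637-39803942) had 53.7, 56.0, 67.8, 74.2 and 87.4 CPM in saline 1 day and 55.8 to 69.1 (median 64.8) after psilocybin, with a log2 fold change of -0.11 ± 0.11. SDHB had 70.1, 73.0, 84.2, 92.8 and 94.4 CPM against 72.0 to 97.0 (median 75.6), a log2 fold change of -0.10 ± 0.09. SDHA had 313, 315, 329, 344 and 402 CPM against 321 to 401 (median 353), at 0.04 ± 0.08. SDHC had 30.2, 46.4, 54.9, 55.5 and 88.1 CPM against 44.7 to 58.5 (median 53.4), at -0.05 ± 0.18. The 4 subunits of this complex thus did not separate the groups.

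In complex III, UQCRQ, a small subunit beside cytochrome b (chr2:135186454-135188293), had 48.9, 49.0, 71.4, 75.7 and 108.5 CPM in saline 1 day and 52.5 to 69.5 (median 58.2) after psilocybin. Saline values lay on both sides of the psilocybin range, and the log2 fold change was -0.28 ± 0.17. UQCR10 and UQCR11 gave -0.28 each. The large core proteins UQCRC1 and UQCRC2 gave 0.002 ± 0.08 and -0.03 ± 0.09, and CYC1, the cytochrome c1 gene, 0.002 ± 0.10.

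In complex IV, COX7B (chrX:61962379-61970160) had 87.3, 100, 129, 163 and 285 CPM in saline 1 day and 80.2 to 137 (median 122.5) after psilocybin. The log2 fold change was -0.47 ± 0.23 (unadjusted p = 0.0521), and -0.05 without animal cor_sal_1d_420, the top value. NDUFA4 had 197, 199, 258.8, 274 and 437 CPM against 186 to 259.7 (median 239), COX7A2 92.2, 102, 129, 155 and 247 against 84.9 to 145 (median 125), and COX6A1 189, 198, 254.8, 279 and 370 against 169 to 288 (median 225). Their log2 fold changes were -0.31 ± 0.17, -0.35 ± 0.20 and -0.26 ± 0.16. COX4I1, with 258.6, 266, 436, 462 and 547 CPM against 270 to 538 (median 350), gave -0.14 ± 0.18, and COX8A, with 163, 177, 210.5, 241 and 261 against 171 to 283 (median 187.5), gave -0.11 ± 0.13.

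In complex V all 10 members were lower in the fit and none passed. ATP5ME (chr8:112025-113574) had 64.1, 64.1, 87.4, 104 and 136 CPM in saline 1 day and 53.3 to 104 (median 77.1) after psilocybin, a log2 fold change of -0.33 ± 0.17 and -0.07 without animal cor_sal_1d_420. ATP5MK, a small membrane subunit, gave -0.39 ± 0.21 and ATP5PO -0.34 ± 0.22, against -0.02 ± 0.08 for ATP5F1A and -0.04 ± 0.11 for ATP5F1D. The 21 shortest members had a median of -0.28 at 1 day and the 21 longest -0.09, and without animal cor_sal_1d_420 these were -0.01 and 0.003.

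**Figure D3:**
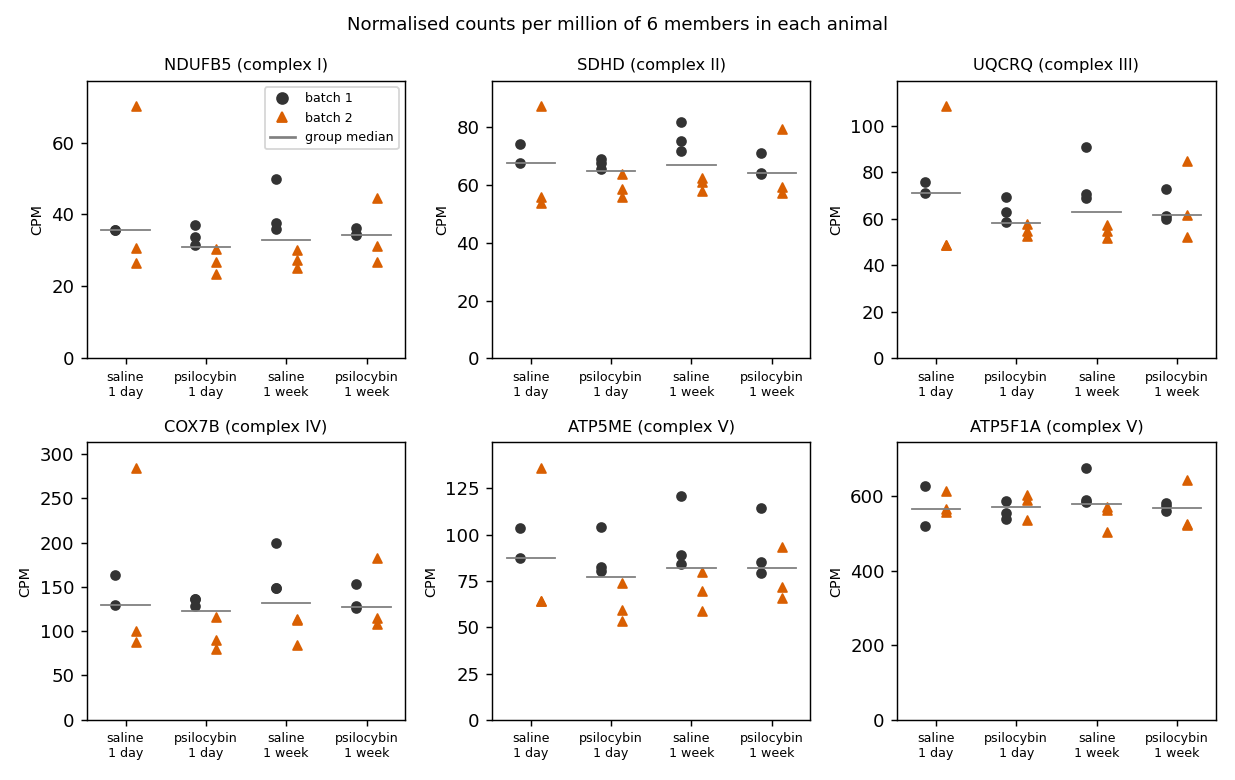
CPM of 6 members in each animal by group (circles batch 1, triangles batch 2, lines group medians, axes from 0): the member with the smallest p at 1 day in each of complexes I to V, and ATP5F1A, which varied least. In the first 5 panels the top saline 1 day triangle is animal cor_sal_1d_420. The psilocybin 1 day median lies under the saline 1 day median in these 5, with 58.2 against 71.4 CPM for UQCRQ and 64.8 against 67.8 for SDHD.

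The comparison at 1 week asks whether a change remained or appeared later. No member passed (0% of 15049 genes were called), none had an unadjusted p under 0.05 in edgeR, DESeq2 or limma-voom, and fold changes were small, from -0.12 to 0.09 on the log2 scale. Of 63 members, 37 were lower and 26 higher in the fit, with a median of -0.01 (all genes -0.003). By complex the medians were -0.01 for I, -0.04 for II, -0.01 for III, -0.004 for IV and 0.005 for V. The batches pointed in opposite directions: within batch 1, 62 of 63 members were lower (median -0.18), and within batch 2, 53 of 63 were higher (median 0.17). Batch 1 holds saline animal cor_sal_1w_245 and batch 2 psilocybin animal cor_psi_1w_427; without animal cor_sal_1w_245 the median was 0.08, and without animal cor_psi_1w_427 -0.11.

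NDUFS3, a core subunit of complex I (chr2:15026300-15036880), had the smallest p at 1 week. It ranged from 126 to 178 CPM (median 132) in saline and from 95.9 to 170 (median 128) in psilocybin, a log2 fold change of -0.12 ± 0.10 (unadjusted p = 0.227). SDHB ranged from 67.9 to 96.7 (median 80.3) and from 64.0 to 91.3 (median 81.0), at -0.05 ± 0.09. UQCRC1 ranged from 169 to 223 (median 194) and from 160 to 219 (median 187.5), at -0.03 ± 0.08. In each of these the groups overlapped over most of their range.

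COX6A2 ranged from 23.6 to 31.8 CPM (median 28.9) in saline 1 week and from 17.8 to 33.8 (median 26.0) in psilocybin 1 week, at -0.11 ± 0.12. ATP5F1D, a rotor-stalk subunit (chr2:77212625-77218645), ranged from 185 to 295 (median 198) and from 168 to 240 (median 199), at -0.06 ± 0.11. The widest intervals at 1 week were those of COX4I2 (0.09, 95% interval -0.48 to 0.66) and NDUFB1 (-0.004, -0.54 to 0.53). ATP5F1A had the interval -0.18 to 0.12 and UQCRC1 -0.19 to 0.12. Changes smaller than these intervals were not detectable with 6 animals a group. Larger ones could also go uncalled, because calls used p-values adjusted over 15049 genes and the intervals are not adjusted.

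**Figure D4:**
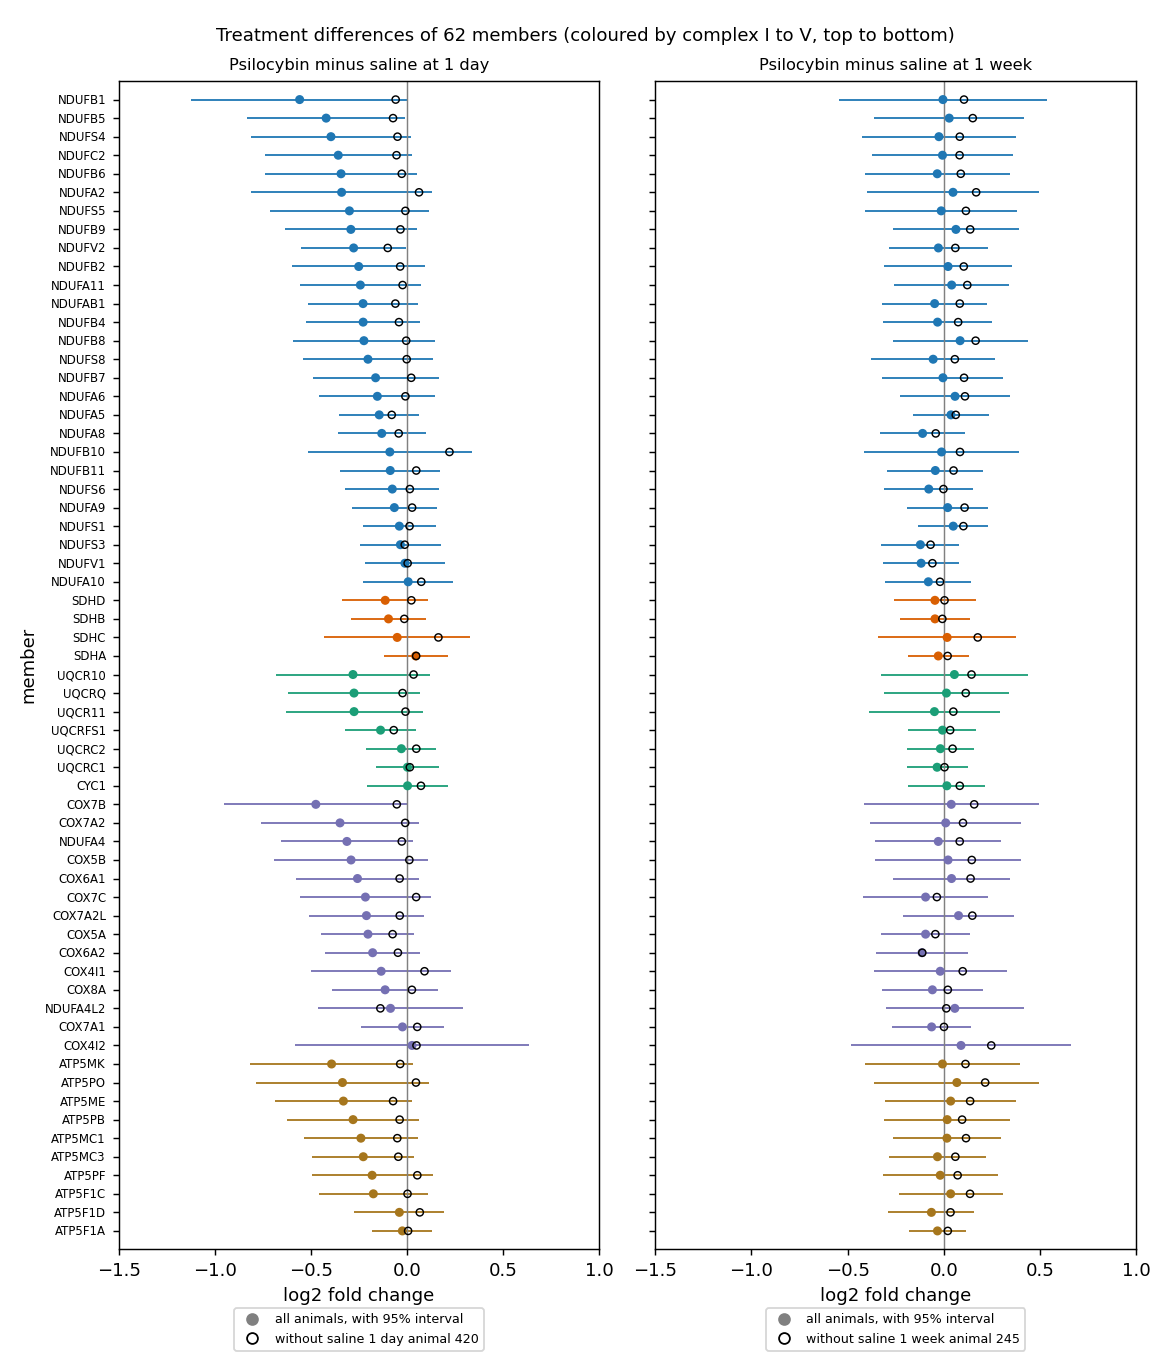
Log2 fold change of psilocybin minus saline for 62 members at 1 day (left) and 1 week (right), filled points with 95% intervals for all animals and open circles for the fit without saline animal cor_sal_1d_420 (left) or cor_sal_1w_245 (right), members grouped by complex. Open circles at 1 day lie near 0 (median -0.01 over all 63 tested) while filled points are mostly negative (median -0.20 over all 63). Each left-out animal had the highest member mean of its group, and fits without other animals are not drawn.

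The psilocybin effect at 1 week minus that at 1 day was positive for 54 of 63 members, with a median of 0.18 (all genes 0.001), and no member passed (0% of 15049 genes; 0 members with an unadjusted p under 0.05 in edgeR). It was not seen in both batches: the median was -0.12 within batch 1 and 0.47 within batch 2, where animals cor_sal_1d_420 and cor_psi_1w_427 lie. Between times within a treatment, no member passed either (0% of 15049 genes in saline and 0% in psilocybin). In saline 57 of 63 members were lower at 1 week (median -0.09) and in psilocybin 52 were higher (median 0.09). Without the 3 animals named above the medians were -0.04 for the difference of effects, 0.01 for saline and 0.001 for psilocybin. These comparisons share animals with the treatment comparisons.

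The batches differed. In batch 2, 28 of 63 members (44.4%) were called lower and 0 higher, against 16.8% of all 15049 genes called lower and 16.1% called higher. The fold change was negative for 58 members, with a median of -0.27 on the log2 scale (all genes -0.02). Calls came from every complex: 13 of 28 in complex I, 1 of 4 in II, 3 of 7 in III, 7 of 14 in IV and 4 of 10 in V. All 28 had lower means in batch 2 in each of the 4 groups, as had 48 of all 63. The 28 were called from these same animals, so their lower group means do not add to the calls. The CPM ranges of the batches overlapped for every member. Shares of all genes are not given for these counts, so they have no background here. What the batch stands for is not given, so its source cannot be named.

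**Figure D5:**
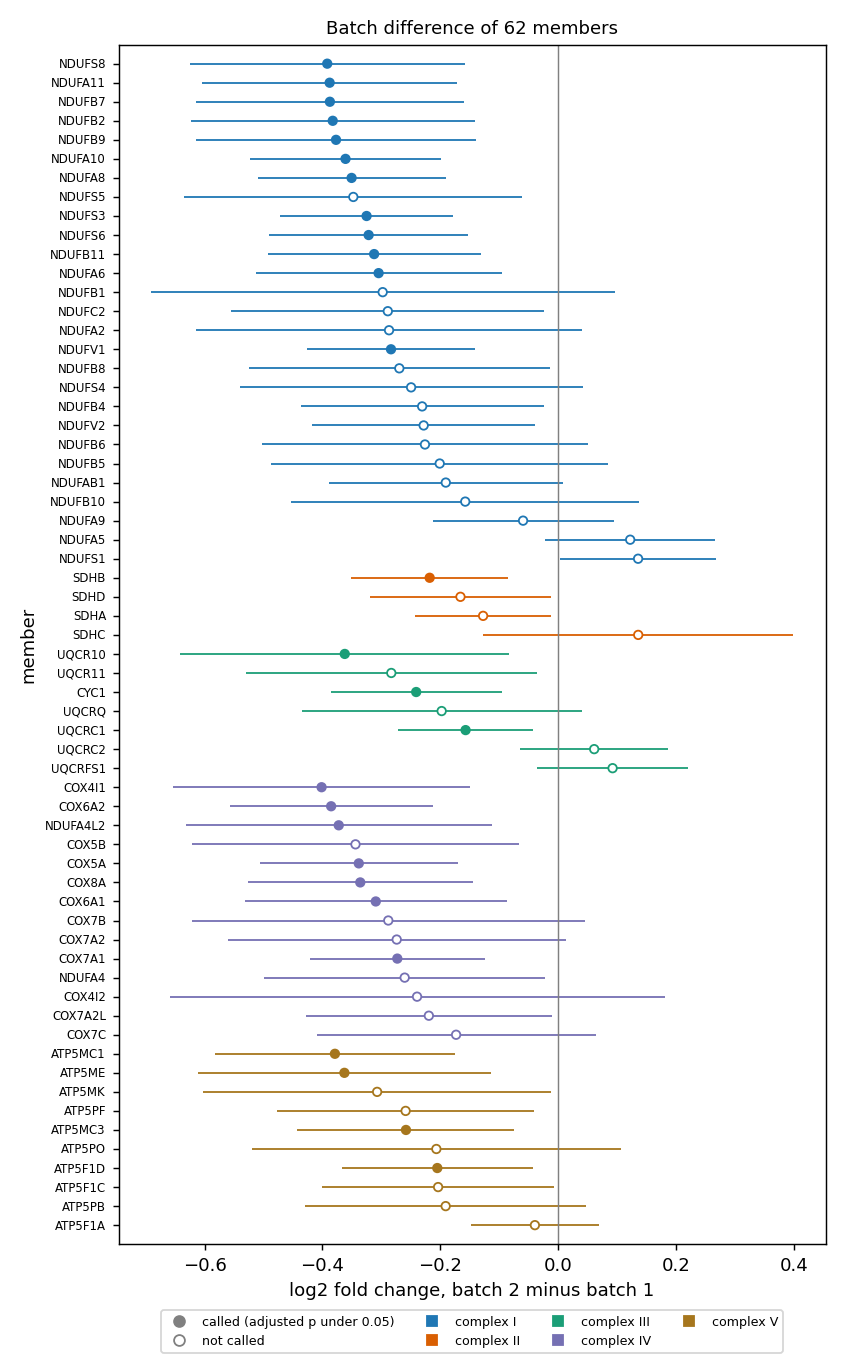
Log2 fold change of batch 2 minus batch 1 for 62 members with 95% intervals, grouped by complex, filled where the adjusted p is under 0.05. All 27 filled points lie to the left of 0, and NDUFS1, NDUFA5, SDHC, UQCRFS1 and UQCRC2 lie to the right, unfilled.

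COX6A2 (chr3:17113357-17135104), which shares 5.18% of its exon bases with ITGAM, had the smallest p. It ranged from 26.7 to 37.6 CPM (median 30.8) in the 11 batch 1 animals and from 17.8 to 34.2 (median 23.05) in the 12 of batch 2, whose top value was animal cor_sal_1d_420 and whose second highest was 27.6. It fell by 0.39 on the log2 scale (SE 0.08, adjusted p = 0.00161). NDUFA10, an accessory subunit of complex I, ranged from 144 to 228 CPM (median 171) and from 113 to 166 (median 136), and fell by 0.36 (SE 0.08, adjusted p = 0.00169). NDUFS3 ranged from 123 to 193 (median 147) and from 95.9 to 146 (median 127), and fell by 0.33 (SE 0.07, adjusted p = 0.0017).

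The other members with the smallest p showed shifts of like size. NDUFA8 had medians of 87.2 and 66.2 CPM (fall of 0.35 ± 0.08 on the log2 scale), COX5A, a matrix-side subunit, 146 and 111 (0.34 ± 0.08) and NDUFV1 122 and 102 (0.28 ± 0.07). NDUFS6 had 99.1 and 79.7, ATP5MC1 148 and 106, COX7A1 68.1 and 57.1 and NDUFA11 66.9 and 48.4 CPM. In 8 of these 10, the highest batch 2 value was that of animal cor_sal_1d_420. These 10 were called in edgeR, DESeq2 and limma-voom alike.

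Of the 28 members called, 17 were called in every fit that left out 1 animal: these 10, COX4I1, COX8A, NDUFB2, NDUFB7, NDUFB9, NDUFB11 and NDUFS8. The other 11 lost the call in at least 1 such fit. Without animal cor_sal_1d_420, 52 members were called lower, of which 27 were among the 28, against 17.6% of all genes, and without animals cor_sal_1d_420, cor_sal_1w_245 and cor_psi_1w_427 54 were called, all 28 included, against 18.9% of genes. Without animal cor_psi_1d_255 or animal cor_psi_1w_246, both of batch 1 and both high in the members, 17 were called, against 11.1% and 10.4% of all genes. Fitting the times separately left 1 call among 1 day animals (NDUFA4L2) and 5 among 1 week animals (COX5A, COX6A2, NDUFA10, NDUFA11 and NDUFA8), against 3.42% and 2.44% of all genes, with medians of -0.19 and -0.30. Within groups, as differences of means with no test, the median over members was -0.14 in saline 1 day, -0.32 in psilocybin 1 day, -0.47 in saline 1 week and -0.14 in psilocybin 1 week.

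The 5 members on the other side were NDUFS1, SDHC, NDUFA5, UQCRFS1 and UQCRC2, named after their values were seen. NDUFS1 (chr15:109409768-109452435) ranged from 92.4 to 125 CPM (median 110) in batch 1 and from 100 to 146 (median 118) in batch 2, a log2 fold change of 0.14 ± 0.06 (adjusted p = 0.106). It was higher in batch 2 in 3 groups and lower in saline 1 week, and passed the threshold in 2 of 23 fits that left out 1 animal. SDHC gave 0.14 ± 0.13, NDUFA5 0.12 ± 0.07, UQCRFS1 0.09 ± 0.06 and UQCRC2 0.06 ± 0.06, none of which passed. These 5 are among the 6 members whose correlation with the rest was negative without animals cor_sal_1d_420, cor_sal_1w_245 and cor_psi_1w_427.

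Other transcripts moved between batches beside the members, against a background of 16.8% of all genes called lower and 16.1% called higher. All 6 microglial markers were called lower in batch 2 (median -0.50), and their summed level ranged from 190 to 303 CPM in batch 1 and from 120 to 252.3 in batch 2. Of 3 tested blood cell markers 2 were called lower, with summed levels of 25.8 to 501 and 15.6 to 81.2 CPM, and 4 of 7 astrocyte markers were called higher (2723 to 6178 and 3820 to 5360 CPM). Ribosomal protein genes were lower for 43 of 44 (5 called, median -0.25), with summed levels of 8070 to 15070 and 6619 to 17470 CPM. Their part in the members' batch difference was not tested.

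The mitochondrially encoded subunits, which pair with the nuclear ones in complexes I, III, IV and V, were compared as a list. All 13 were lower in batch 2, and 2 of 13 were called, a share near the 16.8% of all genes called lower. ND6, a complex I subunit, fell by 0.37 (SE 0.11, adjusted p = 0.0125) and ND3 by 0.34 (SE 0.13, adjusted p = 0.0464). With treatment, none of 13 passed. At 1 day 12 were lower (median -0.06), with ATP6 at -0.11 ± 0.19, and without animal cor_sal_1d_420 all 13 were higher (median 0.17). At 1 week 13 of 13 were lower (median -0.12), with ND1 at -0.17 ± 0.15.

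Among genes that serve the chain without being subunits, none was called with treatment. Of 40 assembly factors 28 were lower at 1 day (median -0.08), with FMC1, needed for ATP synthase assembly, at -0.59 ± 0.27 and COX11, a copper chaperone of complex IV, at -0.27 ± 0.13. Of 13 genes for cytochrome c and coenzyme Q synthesis 8 were lower (median -0.03), with CYCS, cytochrome c itself, at -0.26 ± 0.12. Of 16 citric acid cycle genes 9 were lower at 1 day and 10 at 1 week (medians -0.01 and -0.01). Transcriptional regulators of mitochondrial genes were lower for 13 of 21 at 1 day and 10 of 21 at 1 week (medians -0.06 and 0.003), and the most shifted by p were the nuclear receptor ESRRG at 1 day (-0.21 ± 0.11) and the coactivator PPARGC1B at 1 week (0.26 ± 0.13).

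Between batches, 3 of these lists held calls in both directions and 2 in the lower direction alone. Of 40 assembly factors 14 were called lower and 4 higher; NDUFAF1, a complex I assembly factor, had 0.44 ± 0.08 (adjusted p = 0.000643) while SCO2, a copper chaperone, fell by 0.26 (SE 0.06, adjusted p = 0.00216). Of 16 citric acid cycle genes 3 were called lower and 2 higher, of 21 regulators 6 lower and 3 higher, of 13 carrier and coenzyme Q genes 3 lower and 0 higher, and of 8 nucleotide and phosphate carriers and partners 4 lower and 0 higher. LRPPRC, which stabilises mitochondrial mRNAs, was called higher (0.34 ± 0.07, adjusted p = 0.00116) and POLRMT, the mitochondrial RNA polymerase, lower (-0.26 ± 0.05, adjusted p = 0.000941). The background for these counts is the 16.8% lower and 16.1% higher of all genes given above.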

How the data were processed

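Bulk RNA-seq of prefrontal cortex was analysed in 23 pigs of 4 groups. The authors deposited 1 table of estimated counts per gene. Per the submitters' processing notes, fastp 0.20.0, STAR 2.6c, featureCounts 1.5.1 and build susScr11 were used. Per the file headers, primary alignments with both ends mapped were counted without strand, and reads on overlapping genes were shared in fractions, so that 72.2% of the deposited expected count values are whole numbers (tolerance 0). Rounding to whole counts changed library totals by at most 0.0013%.

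Genes were kept with filterByExpr at a count minimum of 10 and a total of at least 15, leaving 15049 of 25880, and scaled by TMM. edgeR 4.0.16 (R 4.3.3) fitted a robust quasi-likelihood model with group and batch terms to all 23 libraries, and p-values were Benjamini-Hochberg adjusted over 15049 genes, with calls at 0.05. They set a difference between groups or batches against the spread between these animals. CPM are counts scaled to the TMM-adjusted library total, and log2 levels use a prior count of 2. The fit was tested on simulated data with known changes. Correlations are descriptions, computed on log2 levels after group and batch terms. Value columns of no sample numbered 0.

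Members and gene lists were chosen with earlier results of these data known. Values per animal were given for the member with the smallest p in each complex and treatment comparison, the 10 with the smallest p where over 10 were called, the 3 highest per length, the 3 most and 3 least variable, paralogue sets and complex II. Other members and genes of the batch comparison were named after their values were seen. Alternatives were RLE and upper-quartile scaling, other filters, DESeq2 1.42.0, limma-voom (limma 3.58.1), a non-robust fit, no batch term, single batches, only the groups compared, and each animal left out. Leaving out 3 animals together, splitting by length without these animals, fitting times separately and within-group batch differences were added after seeing the data. No genome or sequence table was used, so no sequences are shown. One member is counted among the 63 tested but is not reported here by name or drawn in the plots of single members.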

Additional observations from a re-analysis of the deposited data

Results flagged for a closer look

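Each named member, and the mean of the members, was taken in each group. Of these 124 sets, 8 had a single animal standing apart from the rest of its group by Dixon's gap-to-range ratio at the 95% level. Chance gives about 1 in 20 such groups, but the sets share animals and members that vary together, so they are not independent. In saline 1 day, NDUFB5 was 70.09 CPM in animal cor_sal_1d_420 and 26.4 to 35.6 in the others. Animal cor_psi_1d_255 stood apart in 5 members: SDHB was 96.95 CPM (others 72.0 to 76.9), UQCRC1 236 (173.5 to 195), NDUFA10 228.4 (127 to 162.5), NDUFV1 157 (93.4 to 114) and COX8A 283 (171 to 205). Animal cor_sal_1w_245 stood apart in ATP5F1D, with 295.1 CPM (185 to 220), and in SDHC, with 80.64 (50.5 to 55.02). In all 8 the animal standing apart was the highest of its group. The mean of the members was flagged in no group, so animal cor_sal_1d_420 did not stand apart by this rule in that mean.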

How the results depend on the processing

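In 35 alternative settings of each treatment comparison (23 of them leaving out 1 animal), no member was called. In the main fit 0% of all genes were called at 1 day and at 1 week. The share of all genes in the alternative settings is not given here, so this absence has no background. The median difference of the psilocybin effects was -0.12 within batch 1 and 0.47 within batch 2. The 28 members called lower in batch 2 (16.8% of all genes) became 24 with RLE scaling (15.1%), 29 with upper-quartile scaling (17.1%), 21 without a filter (8.51%), 27 in DESeq2 (16.1%) and 35 in limma-voom (17.3%). They became 1 among 1 day animals (3.42%), 5 among 1 week animals (2.44%) and 54 (18.9%) without animals cor_sal_1d_420, cor_sal_1w_245 and cor_psi_1w_427. Leaving out 1 animal gave 17 (without animal cor_psi_1d_255 or animal cor_psi_1w_246; 11.1% and 10.4%) to 52 (without animal cor_sal_1d_420; 17.6%), and 19 without animal cor_sal_1w_245 (13.3%). Of 594 batch values of 18 named members, 81 kept their direction and missed the threshold. Of 1050 values of 30 named members at 1 day, 61 changed sign without a call, and at 1 week 89 of 1050. The causes were not tested. No paired analysis was possible because animal numbers are not shared between groups. With 5 or 6 animals a group and a between-animal SD of 0.22 for the member mean on the log2 scale, small shared changes were not detectable.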
